A study of Saccharomyces cerevisiae with 4 samples.

Results

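Autophagy genes of Saccharomyces cerevisiae were followed through 2 stresses, the drug celastrol and a rise in temperature. The set holds every gene whose symbol is ATG followed by a number, together with APE1, which encodes vacuolar aminopeptidase I. It comprises 36 of the 5477 genes that have a probe annotated to 1 gene, and all 36 were measured on all 4 arrays. The RefSeq gene table lists 38 such genes. Of the other two, ATG31 shared its probe's annotation with a further gene and was left out, and ATG44 had no probe in the annotation table used. On 2 arrays, RNA of cells given 10 µM celastrol, a plant triterpenoid, for 1 h was set against RNA of cells given the solvent DMSO. On the other 2 arrays, RNA of cells kept at 39 °C for 30 min was set against RNA of cells kept at 30 °C. The labels describe the arrays of a treatment as separate experiments. The sources used here name no strain, genotype, medium or growth phase.

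Autophagy encloses cytoplasm, organelles or chosen proteins in a vesicle with a double membrane, the autophagosome, and delivers them to the vacuole for breakdown. A kinase complex around Atg1 starts the vesicle, Atg9 vesicles and lipid transfer feed it, a PI3-kinase complex marks its membrane, and 2 protein conjugation systems attach Atg8 to it. In growing yeast the same machinery runs the cytoplasm-to-vacuole pathway, which carries the precursor of Ape1 to the vacuole. Under starvation, and when the TORC1 kinase is inhibited, it switches to bulk degradation, and receptors that bind Atg8 choose particular organelles.

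Values are log2 ratios of treated over control from single arrays, and rose and fell are used for genes with an adjusted p under 0.05 in limma across the 5403 genes measured on all arrays. Errors are SDs over 2 arrays. The base of the logarithm was read from the values of heat shock replicate 1 and assumed for the others. The chaperone gene SSA4, a check of both treatments, had log2 ratios of 3.69 and 4.59 after celastrol and 3.73 and 4.77 after heat shock, and HSP26, for a small heat shock protein, had 2.47 and 2.95 after celastrol and 4.58 and 5.32 after heat shock. FLR1, a drug transporter gene, was at 2.72 after celastrol and −0.06 after heat shock. Across all genes tested the replicate arrays correlated with r = 0.85 for celastrol and r = 0.66 for heat shock. The treated RNA was labelled with Cy5 on every array, so a dye effect of a probe and a treatment effect cannot be told apart. Ratios are relative to the chip, so a change in total RNA per cell would not be seen. The RNA is that of many cells, so less of a transcript per cell and fewer cells holding it cannot be told apart either.

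Celastrol raised 5 of the 36 genes and heat shock raised 4, and 0 fell by limma after either. At an unadjusted p under 0.05, 2 were below 0 after celastrol (ATG14 and ATG16) and 1 after heat shock (ATG16). Of the 5403 genes tested, 1071 were so after celastrol and 901 after heat shock. In either direction 10 and 12 of the 36 were under that unadjusted p, where 1663 and 1645 of the 5403 were. ATG40, APE1, ATG1, ATG41 and ATG8 rose after celastrol, and APE1, ATG8, ATG34 and ATG33 rose after heat shock. The 5 genes are 13.9% of the set, where 3.85% of all genes tested rose and 2.68% fell after celastrol. The 4 genes are 11.1%, where 4.28% rose and 4.79% fell after heat shock. Counting both directions, 6.53% of all genes changed after celastrol and 9.07% after heat shock. APE1 and ATG8 rose after both, 5.56% of the set, as did 0.907% of all genes. The median log2 ratio after celastrol was 0.19 over the 36 genes and −0.11 over all genes tested, and after heat shock 0.32 over the 36 and 0.00 over all. Of the 36, 17 lay above 0 on all 4 arrays, or 47.2%, where 17.8% of all genes did. A further 4 lay below 0 on all 4 arrays, or 11.1%, where 27.4% of all genes did. Limma called 0 genes after either treatment when celastrol replicate 1 or celastrol replicate 2 was left out, with 926 and 411 genes at an unadjusted p under 0.05 after celastrol and 1154 after heat shock both times. No gene of the 5403 kept a call in those fits, so these losses say nothing particular about the set. The log2 ratios of APE1 and ATG40 on the single celastrol arrays left were 2.03 to 2.54 and 2.43 to 2.62, and the heat shock ratios are the same in these fits, where only the estimate of spread differs. Leaving out a heat shock array likewise keeps the celastrol ratios and changes only the estimate of their spread. The log2 ratios on heat shock replicates 1 and 2 alone were 1.42 and 1.47 for APE1 and 1.14 and 1.23 for ATG8. They were 1.24 and 0.75 for ATG34 and 0.69 and 0.91 for ATG33. APE1, ATG1, ATG8 and ATG40, 11.1% of the set, were among the 174 genes, 3.22% of those tested, that exceeded 0 on every array and averaged 1 or more.

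**Figure D1:**
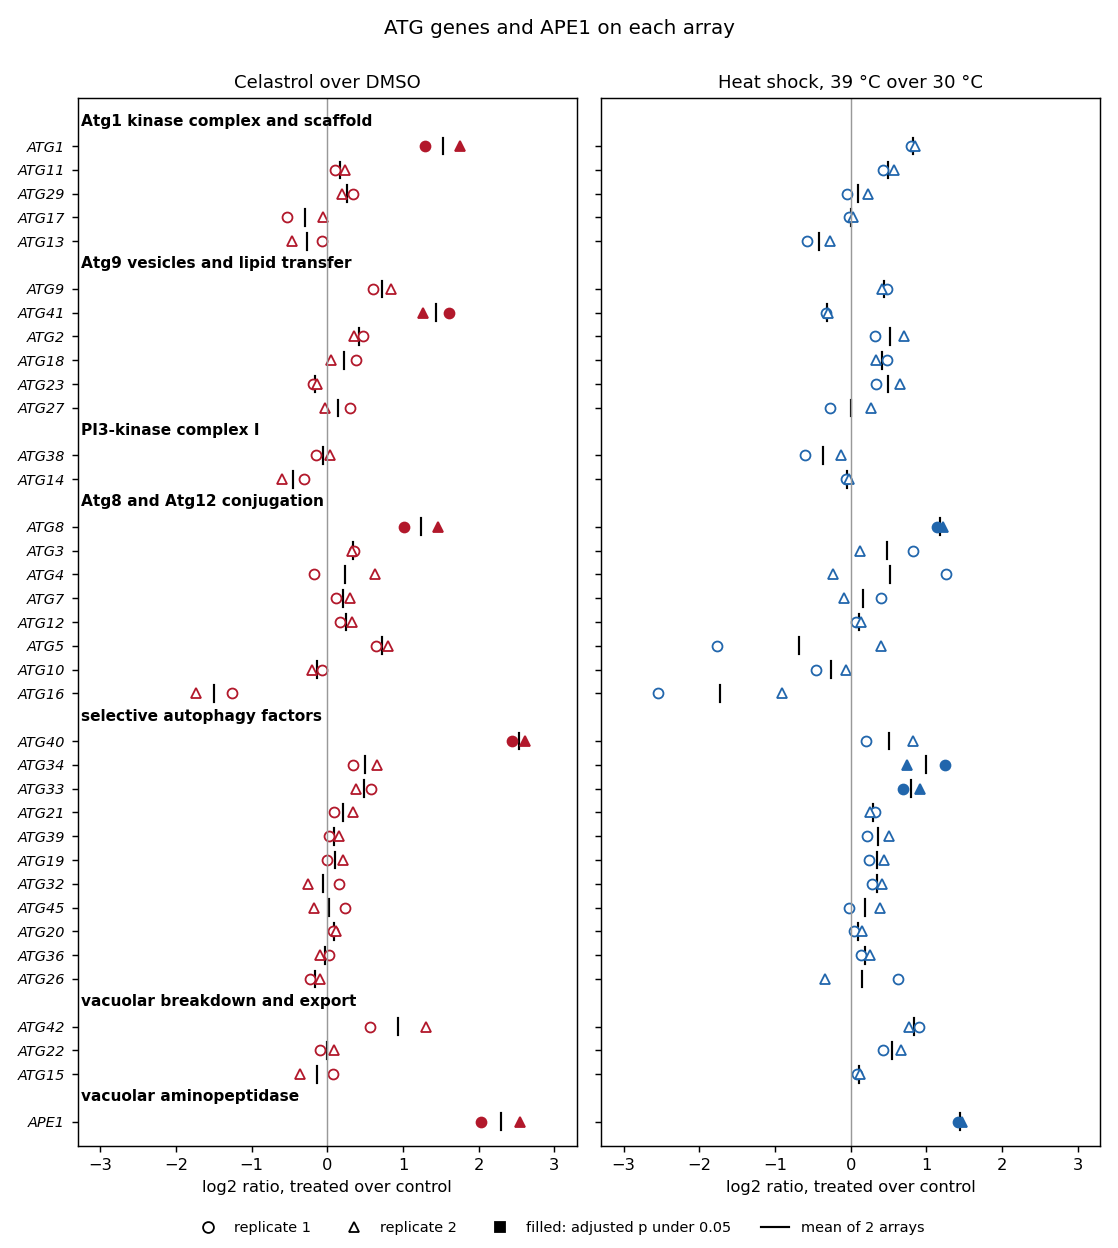
Log2 ratios of treated over control for the 36 genes, grouped by role, after celastrol (left) and after heat shock (right). Circles are replicate 1, triangles replicate 2, bars their mean, and filled symbols mark an adjusted p under 0.05. ATG40 and APE1 lie farthest right after celastrol, APE1 and ATG8 after heat shock, and ATG16 farthest left in both.

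Among the genes of the set for the Atg1 kinase complex and its scaffold, only the kinase gene itself rose, and it did so after celastrol. ATG1 had log2 ratios of 1.29 and 1.75 on the celastrol arrays, against 0.80 and 0.85 on the heat shock arrays. Both celastrol values were thus above both heat shock values. The mean was 1.52 ± 0.32 after celastrol, a 2.87-fold increase (limma adjusted p = 0.0202), and 0.83 ± 0.03 after heat shock (limma adjusted p = 0.0554), which missed the threshold. Without the 357 genes that lay low on all arrays, ATG1 was called after heat shock too. The partners that hold Atg1 at the assembly site did not share this pattern. ATG13, whose product binds and activates the kinase, was at −0.27 ± 0.28 after celastrol and −0.42 ± 0.22 after heat shock. ATG17, for the scaffold of bulk autophagy, was at −0.29 ± 0.34 after celastrol and 0.01 ± 0.04 after heat shock. ATG29, for a further protein of the Atg17 scaffold complex, was at 0.26 ± 0.10 after celastrol and 0.09 ± 0.20 after heat shock. ATG11, the scaffold of selective autophagy, was at 0.16 ± 0.09 after celastrol and 0.50 ± 0.11 after heat shock. None of these 4 passed in either treatment.

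Genes for membrane supply were led by ATG41 after celastrol. ATG41, earlier named ICY2, encodes a protein that binds Atg9 and is needed for full autophagy in starved cells. Its log2 ratios were 1.61 and 1.27 on the celastrol arrays, against −0.33 and −0.30 on the heat shock arrays. Both celastrol arrays lay well above 0 and both heat shock arrays a little below it. The mean of 1.44 ± 0.24 is a 2.71-fold increase (limma adjusted p = 0.02), and the heat shock mean of −0.32 ± 0.02 was not called (limma adjusted p = 0.255). ATG9, for the membrane protein of the vesicles that seed the autophagosome, had 0.60 and 0.84 on the celastrol arrays and 0.47 and 0.41 on the heat shock arrays. All 4 values were above 0, and neither mean passed (limma adjusted p = 0.0614 after celastrol and 0.139 after heat shock). With each array centred on its median, which moves the median of the set after celastrol to 0.31, ATG9 passed after celastrol. It also passed after celastrol with quantile normalization, array weights, the celastrol arrays fitted alone and the crossed block. ATG2, for the lipid transfer protein, was at 0.41 ± 0.08 after celastrol and 0.52 ± 0.27 after heat shock. ATG18, for its partner that binds PI3-phosphate lipid, was at 0.21 ± 0.23 after celastrol and 0.41 ± 0.10 after heat shock. The genes for the Atg9 trafficking factors were close to 0 after celastrol, ATG23 at −0.16 ± 0.04 and ATG27 at 0.13 ± 0.23. After heat shock ATG23 was at 0.50 ± 0.23 and ATG27 at −0.00 ± 0.37.

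The 2 genes of the set that belong to the PI3-kinase complex of autophagy lay at or below 0 and were not called. ATG14, which directs that kinase to the assembly site, had −0.31 and −0.60 on the celastrol arrays and −0.07 and −0.03 on the heat shock arrays. ATG38, for a subunit that holds the complex together, was at −0.05 ± 0.13 after celastrol and −0.37 ± 0.34 after heat shock.

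In the conjugation systems, ATG8 rose after both treatments. Atg8 is the ubiquitin-like protein that is coupled to a membrane lipid, stays on the autophagosome and binds receptors. ATG8 had log2 ratios of 1.01 and 1.46 on the celastrol arrays, against 1.14 and 1.23 on the heat shock arrays. The heat shock values lay between those of the celastrol arrays. The mean was 1.24 ± 0.32, or 2.36-fold, after celastrol (limma adjusted p = 0.0297) and 1.18 ± 0.06, or 2.27-fold, after heat shock (limma adjusted p = 0.0253). The difference between the treatments was 0.06, with a 95% interval of −0.59 to 0.70.

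The enzymes that process or attach Atg8 were not called. ATG3, for the enzyme that transfers Atg8 to the lipid, was at 0.34 ± 0.02 after celastrol and 0.48 ± 0.49 after heat shock. ATG7, for the activating enzyme of both systems, was at 0.21 ± 0.13 after celastrol and 0.16 ± 0.35 after heat shock. ATG4, for the protease that trims and recycles Atg8, had −0.17 and 0.63 on the celastrol arrays and 1.26 and −0.24 on the heat shock arrays. The arrays of both treatments thus disagreed in sign for ATG4.

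The second system couples Atg12 to Atg5, and Atg16 holds the product at the membrane. ATG12 was at 0.24 ± 0.11 after celastrol and 0.11 ± 0.04 after heat shock. ATG10, for its transfer enzyme, was at −0.14 ± 0.09 after celastrol and −0.25 ± 0.28 after heat shock. ATG5 had 0.64 and 0.80 on the celastrol arrays, against −1.77 and 0.40 on the heat shock arrays. The heat shock arrays of ATG5 stood 2.17 log2 units apart, the widest gap between replicates in the set, and its heat shock mean of −0.69 ± 1.53 has an SD larger than the mean. ATG5 was not called after either treatment in the main fit (limma adjusted p = 0.388 after celastrol), where both treatments share 1 estimate of spread. With the celastrol arrays fitted alone, limma called ATG5 higher after celastrol.

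ATG16 was the lowest gene of the set after both treatments. It had log2 ratios of −1.25 and −1.74 on the celastrol arrays, against −2.55 and −0.90 on the heat shock arrays. All 4 values were below 0, and the heat shock arrays lay far apart. The means of −1.50 ± 0.34 after celastrol and −1.73 ± 1.16 after heat shock did not pass (limma adjusted p = 0.0878 after celastrol and 0.0646 after heat shock). With quantile normalization both were called lower, as they were with the crossed block, a setting chosen after the data were seen. After celastrol ATG16 was also called lower with array weights and with the celastrol arrays fitted alone. The main fit shares 1 estimate of spread between the treatments. ATG16 is the only gene of the set among the 357 genes, 6.61% of those tested, that were under 0 everywhere and averaged −1 or less. Whether a dye effect plays a part was not tested.

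Selective autophagy genes held the largest increase of the set after celastrol and 2 of the 4 increases after heat shock. ATG40 encodes a receptor in the endoplasmic reticulum that ties parts of this organelle to Atg8. Its log2 ratios were 2.43 and 2.62 on the celastrol arrays, against 0.20 and 0.82 on the heat shock arrays. The celastrol values were close together and far above those of the heat shock arrays. The mean of 2.53 ± 0.13 after celastrol, a 5.76-fold increase (limma adjusted p = 0.00915), ranked 30 from the highest among the 5403 genes. After heat shock ATG40 was at 0.51 ± 0.44, which was not called (limma adjusted p = 0.17).

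ATG34 and ATG33 rose after heat shock, with adjusted p-values just under the threshold. ATG34, for a receptor that brings the vacuolar mannosidase Ams1 into autophagosomes, had 0.33 and 0.66 on the celastrol arrays, against 1.24 and 0.75 on the heat shock arrays. Its mean was 0.50 ± 0.23 after celastrol (limma adjusted p = 0.167) and 0.99 ± 0.35 after heat shock, or 1.99-fold (limma adjusted p = 0.0455). ATG33, for a mitochondrial membrane protein needed for full mitophagy, had 0.58 and 0.38 on the celastrol arrays, against 0.69 and 0.91 on the heat shock arrays. Its mean was 0.48 ± 0.14 after celastrol (limma adjusted p = 0.123) and 0.80 ± 0.16 after heat shock, or 1.74-fold (limma adjusted p = 0.0475). For both genes each heat shock value was above each celastrol value, but neither difference between the treatments passed. Celastrol minus heat shock was −0.50 for ATG34 (95% interval −1.21 to 0.21, limma adjusted p = 0.5035). For ATG33 it was −0.32 (95% interval −0.90 to 0.26, limma adjusted p = 0.599). The call of ATG34 was lost in 8 of 16 settings and that of ATG33 in 9. Both were lost with exact zeros kept as values, with array weights and with the heat shock arrays fitted alone. Both were also lost with the replicate block and in a test against a 1.5-fold change. The remaining losses came with 1 array left out. Without heat shock replicate 1 ATG34 was at 0.75 and ATG33 at 0.91, and without heat shock replicate 2 at 1.24 and 0.69.

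The other 8 genes of this group were not called, and their means ran from −0.17 to 0.21 after celastrol and from 0.10 to 0.36 after heat shock. ATG19 encodes the receptor for Ape1 itself and is a direct neighbour of ATG34 on the chromosome. It was at 0.10 ± 0.14 after celastrol and 0.34 ± 0.13 after heat shock. The mitophagy receptor gene ATG32 was at −0.05 ± 0.29 after celastrol and 0.35 ± 0.10 after heat shock. ATG39, for the receptor of the nuclear envelope, was at 0.09 ± 0.09 after celastrol and 0.36 ± 0.21 after heat shock, and ATG36, for that of peroxisomes, at −0.04 ± 0.09 after celastrol and 0.19 ± 0.08 after heat shock. ATG45, for a receptor of glycogen, was at 0.02 ± 0.29 after celastrol and 0.18 ± 0.29 after heat shock. The lipid-binding proteins of the cytoplasm-to-vacuole pathway stayed within similar bounds, ATG20 at 0.09 ± 0.03 after celastrol and 0.10 ± 0.08 after heat shock, and ATG21 at 0.21 ± 0.18 after celastrol and 0.29 ± 0.04 after heat shock. ATG26, for a sterol glucosyltransferase, was at −0.17 ± 0.09 after celastrol and 0.14 ± 0.68 after heat shock.

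At the vacuolar end of the pathway, APE1 rose after both treatments and was the highest gene of the set after heat shock. Ape1 is made in the cytoplasm as an inactive precursor, assembles into large complexes and is the main cargo of the cytoplasm-to-vacuole pathway. APE1 had log2 ratios of 2.03 and 2.54 on the celastrol arrays, against 1.42 and 1.47 on the heat shock arrays. Both celastrol values were above both heat shock values, and the heat shock arrays were nearly equal. The mean was 2.29 ± 0.36, or 4.89-fold, after celastrol (limma adjusted p = 0.00915) and 1.45 ± 0.03, or 2.72-fold, after heat shock (limma adjusted p = 0.019). APE1 ranked 35 of 5403 from the highest after celastrol and 119 after heat shock. With the heat shock arrays fitted alone, limma called 0 of 5403 genes (1154 at an unadjusted p under 0.05), APE1 and the other 3 among those lost.

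ATG42, ATG22 and ATG15, the other genes of the set that act in the vacuole, were not called. ATG42, for a vacuolar carboxypeptidase, had 0.56 and 1.30 on the celastrol arrays and 0.90 and 0.78 on the heat shock arrays. Its means of 0.93 ± 0.52 after celastrol (limma adjusted p = 0.0698) and 0.84 ± 0.09 after heat shock (limma adjusted p = 0.082) both passed with quantile normalization and with the crossed block. The celastrol mean also passed with array weights and with the celastrol arrays fitted alone. ATG22, for a transporter that returns amino acids to the cytoplasm, was at −0.00 ± 0.12 after celastrol and 0.55 ± 0.16 after heat shock. ATG15, for the lipase that opens autophagic bodies, was at −0.14 ± 0.31 after celastrol and 0.11 ± 0.03 after heat shock.

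Celastrol and heat shock were then set against each other gene by gene, as a contrast in the same fit. Doses and times differ in kind, so this compares the 2 experiments as run. By limma 0 of the 36 genes passed, where 1.11% of all genes tested did, and 5 of the 36 were under an unadjusted p of 0.05, where 13.7% of all genes were. ATG40 differed by 2.01 log2 units (SE 0.29, 95% interval 1.27 to 2.76, limma adjusted p = 0.0544) and ATG41 by 1.76 (SE 0.24, 95% interval 1.16 to 2.36, limma adjusted p = 0.0523). Both just missed the threshold. Both passed with quantile normalization, with array weights, without the 357 genes low on all arrays, and without heat shock replicate 1 or heat shock replicate 2, and ATG41 also with median-centred arrays. APE1 was 0.84 higher after celastrol (SE 0.26, limma adjusted p = 0.273) and ATG1 0.70 higher (SE 0.25, limma adjusted p = 0.334). ATG23 was the gene that leaned furthest to heat shock, with a difference of −0.66 (SE 0.23, limma adjusted p = 0.326).

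**Figure D2:**
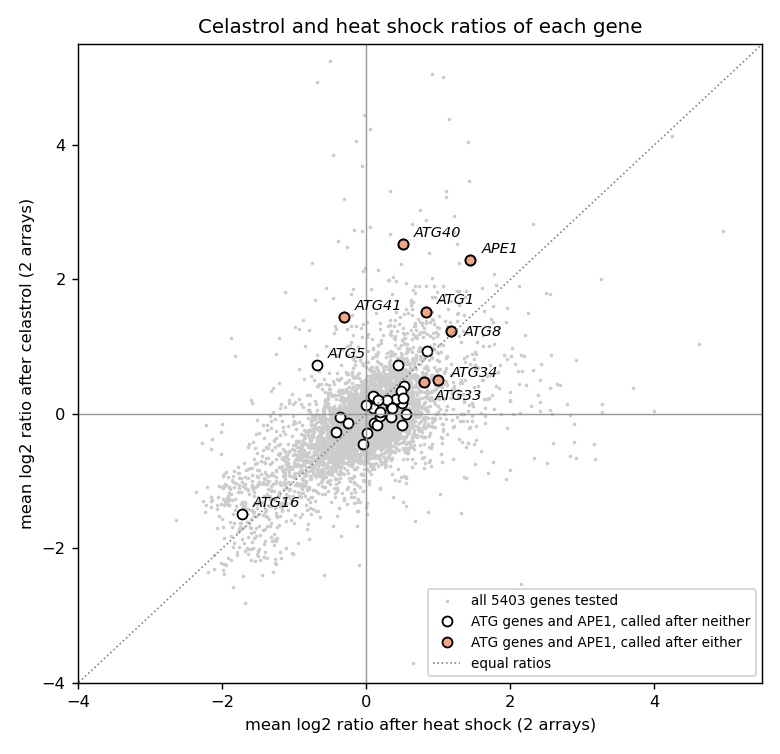
Mean log2 ratio after celastrol (vertical axis) against that after heat shock (horizontal axis) for the 36 genes, over all 5403 genes tested in grey. ATG8 lies near the dotted line of equal ratios, while ATG40, ATG41, APE1 and ATG1 lie above it and ATG34 and ATG33 below it.

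**Figure D3:**
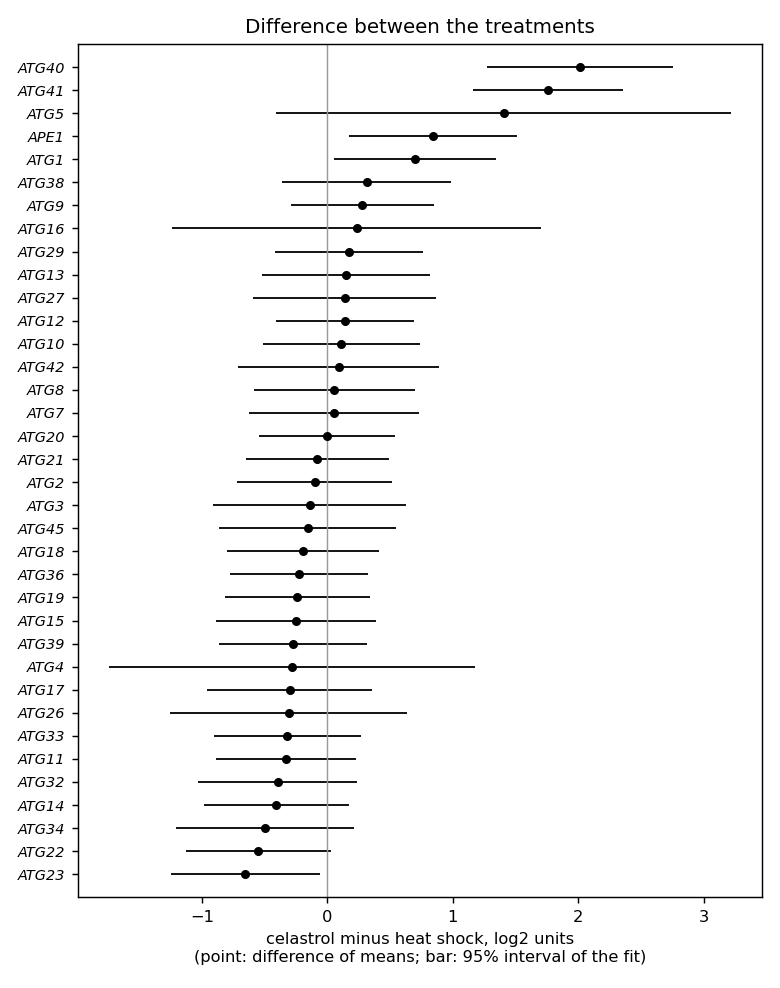
Celastrol minus heat shock for each of the 36 genes in log2 units, with the 95% interval of the fit, which is not adjusted for the number of genes. The intervals of ATG40, ATG41, APE1 and ATG1 lie above 0 and that of ATG23 below 0, and ATG5, ATG4 and ATG16 have the widest intervals.

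Replicate arrays were compared over the set. Over the 36 genes the 2 celastrol arrays correlated with r = 0.92 and the 2 heat shock arrays with r = 0.61, and the treatment means correlated with r = 0.61, where over all genes tested the means gave r = 0.57. Over the 29 genes of the set that were not called after either treatment, r was 0.79 for the celastrol arrays, 0.46 for the heat shock arrays and 0.67 for the means. The Spearman rank coefficients, in the same order, were 0.60, 0.35 and 0.47 over the 29 genes. Over the 36 they were 0.77, 0.55 and 0.57, and over all genes tested 0.77, 0.60 and 0.59. These are descriptions across genes that share arrays and dye orientation. The median gap between replicate arrays was 0.22 log2 units for celastrol and 0.23 for heat shock, where over all genes it was 0.23 for celastrol and 0.34 for heat shock. Only ATG2 had more than 1 probe. One of them read 0.39 and 0.11 on the celastrol arrays and 0.25 and 0.66 on the heat shock arrays. The other read 0.55 and 0.60 on the celastrol arrays and 0.41 and 0.75 on the heat shock arrays.

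Genes that work beside the ATG genes came from 4 lists. Of 22 further genes for the PI3-kinase, sorting nexins and vacuole fusion, 1 rose after celastrol and none after heat shock. That gene was YKT6, for a SNARE protein that joins autophagosomes to the vacuole, with 0.96 and 1.10 on the celastrol arrays (limma adjusted p = 0.0319), against 0.12 and 0.20 on the heat shock arrays. SNX4, the partner of Atg20, had 0.47 and 1.31 on the celastrol arrays and 0.22 and 0.05 on the heat shock arrays and was not called. The kinase genes VPS34 and VPS15 and their partner VPS30, also known as ATG6, had means of −0.08 to −0.01 after celastrol and −0.02 to 0.28 after heat shock. The median of the list was −0.04 after celastrol and 0.15 after heat shock.

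Of 10 measured genes for other cargo, receptors and vacuolar hydrolases, 1 rose, after heat shock. It was AMS1, for the mannosidase that Atg34 and Atg19 carry to the vacuole, with 0.55 and 0.95 on the celastrol arrays, against 2.31 and 1.82 on the heat shock arrays. Its mean after heat shock was 2.06, a 4.18-fold increase (limma adjusted p = 0.0133), and after celastrol 0.75 (limma adjusted p = 0.0885). The 2 treatments differed by −1.32 (SE 0.29, limma adjusted p = 0.147). The list had medians of 0.36 after celastrol and 0.63 after heat shock, and CUE5, for a receptor of ubiquitin-bound aggregates, had 0.63 and 0.70 on the celastrol arrays and 2.50 and 0.51 on the heat shock arrays. PRC1, for carboxypeptidase Y, was at 0.59 after celastrol and 0.79 after heat shock (limma adjusted p = 0.0939 after celastrol and 0.0537 after heat shock). PRB1, for vacuolar protease B, had −0.53 and −1.74 on the celastrol arrays and −2.28 and −0.38 on the heat shock arrays.

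Upstream of the ATG genes, 1 of 20 measured genes of TORC1 and nutrient signalling fell, after celastrol. TAP42, for a phosphatase regulator under TORC1, had −0.84 and −1.53 on the celastrol arrays (mean −1.18, limma adjusted p = 0.0447), against −0.76 and −0.59 on the heat shock arrays (mean −0.68, limma adjusted p = 0.116). The call after celastrol was lost with median-centred arrays (limma adjusted p = 0.0542), with exact zeros kept as values (limma adjusted p = 0.0501), with the replicate block, in a test against a 1.5-fold change and without celastrol replicate 1 (−1.53) or celastrol replicate 2 (−0.84), over adjusted p-values from 0.00385 to 0.629 in 16 settings. The kinase genes TOR1 and TOR2 were at −0.30 and 0.33 after celastrol and at 0.08 and 0.12 after heat shock. Of 10 measured transcriptional regulators of ATG genes none was called after either treatment by limma. Under an unadjusted p of 0.05 were 0 after celastrol and 1 after heat shock, against 1663 and 1645 of all 5403 genes. UME6, for the repressor of ATG8, was at −0.15 after celastrol and −0.11 after heat shock. RPH1, for a repressor of several ATG genes, was at −0.37 after celastrol and 0.44 after heat shock. In the 4 lists, 4.55%, 10.0%, 5.0% and 0% of genes changed after either treatment, in the order given, against 19.4% of the 36 and 13.5% of all genes tested.

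**Figure D4:**
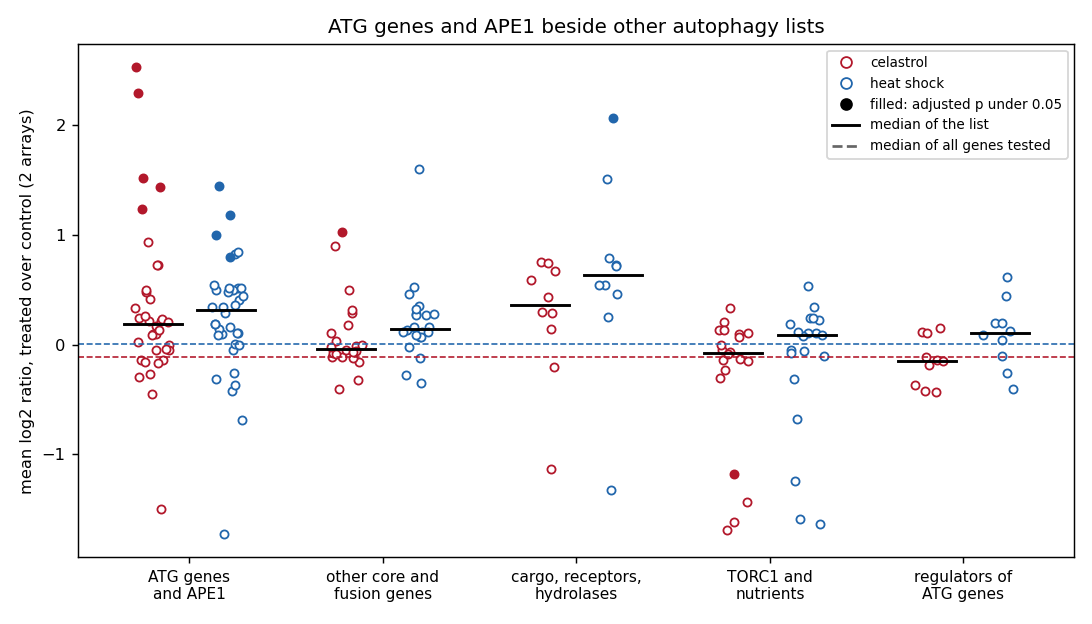
Mean log2 ratios after celastrol (red) and heat shock (blue) for the ATG genes with APE1 and for 4 lists of related genes. Filled points passed the threshold, black bars are list medians, and dashed lines are the medians of all genes tested. Of the 36 ATG genes with APE1, 5 are filled after celastrol and 4 after heat shock. Of the 22, 10, 20 and 10 genes of the other lists, 2 are filled after celastrol and 1 after heat shock. Of the 2 after celastrol, YKT6 lies above 0 and TAP42 below it. Over all genes tested 6.53% changed after celastrol and 9.07% after heat shock.

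Chromosomal neighbours of the 7 genes that rose were looked up in the RefSeq table. Of 14 neighbours 11 were measured. After celastrol 1 of the 11 changed, or 9.09%, where 6.53% of all genes tested did, and after heat shock 5 changed, or 45.5%, where 9.07% of all genes did. The gene that changed after celastrol was PDR5, for the main multidrug pump, which lies next to ATG40. Their systematic names, YOR153W and YOR152C, place the 2 genes on opposite strands, reading away from each other. PDR5 had log2 ratios of 3.38 and 3.24 on the celastrol arrays, against 1.42 and 0.80 on the heat shock arrays, and rose after both (limma adjusted p = 0.00513 after celastrol and 0.0395 after heat shock). RPB2, on the other side of ATG40, was at 0.41 after celastrol and 0.16 after heat shock and was not called. Beside ATG34, PHM7 rose after heat shock (1.23 and 1.36), against −0.34 and −0.40 on the celastrol arrays, where it was not called. Among the other neighbours, TOS3 beside ATG1 rose, and ILV5 beside ATG33 and ILS1 beside ATG8 fell, after heat shock. Both neighbours of APE1, YKL104W-A and YKL102C, and RPL36B beside ATG41 were looked up and have no value here. GFA1, or YKL104C, is numbered next to APE1, or YKL103C, and was not counted among the neighbours. It was at −0.02 after celastrol and 0.21 after heat shock.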

How the data were processed

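Per the labels, total RNA was hybridised on arrays with 2 colours, with Cy5 for treated and Cy3 for control RNA and no dye swap. The deposited values are log2 ratios. Per the labels, the authors averaged duplicates within a chip and normalized them to its median signal. The sources used here name no array software, background correction, spot filter or genome build, so the share of values near background is unknown. The log base was read from heat shock replicate 1, where 302 pairs of values lie apart by the log2 of a ratio of small whole numbers (within 2e-09), and 0 by its natural or decimal log, and was assumed for the other arrays.

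Of 6415 probes 5619 have 1 gene in the platform annotation, 76 several and 720 none there. All 5619 identifiers matched the RefSeq gene table. Probes with several genes were left out, exact zeros were taken as missing, probes of a gene were averaged, and 74 genes not measured on all arrays were left out. No values were rescaled. Limma 3.58.1 in R 4.3.3 (lmFit, eBayes) fitted 1 mean per treatment over all 4 arrays, which share 1 estimate of spread (2 residual and 3.12 prior degrees of freedom). Tests were 2-sided, of each mean against 0 and of their contrast, with Benjamini-Hochberg adjustment over 5403 genes. All adjusted p-values are limma's. The code of the fit was also run on simulated data, which does not test the calls made here. With 2 arrays per treatment, precision is limited by their number.

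The members, roles, lists, tests and alternatives were chosen with earlier results of these data known. All 36 genes are named; array values are given for those called and for APE1, and for others chosen after their values were seen, as were the list genes named beyond those called. PEP4 and GAT1 of the lists were not tested, and 1 further list gene is not reported here. Promoter motifs and sequences were not analysed here.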

Additional observations from a re-analysis of the deposited data

How the results depend on the processing

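Of the 9 calls in the set, 5 after celastrol and 4 after heat shock, all held with median-centred arrays, quantile normalization, genes measured on at least 1 array per treatment, a robust prior, the median of probes, the crossed block and without genes low on all arrays. The last 2 settings were chosen after seeing the data. Calls held for 7 with exact zeros kept, 6 with array weights, 5 with a treatment's arrays fitted alone, and 2 (APE1 and ATG40, after celastrol) with the replicate block and in a test against a 1.5-fold change. Leaving out 1 array in turn gave 0 to 9 called members and 0 to 1522 called genes after celastrol, 0 to 8 and 0 to 1582 after heat shock, and 0 to 3 and 0 to 575 for the difference. Dropping 1 array leaves the spread to be estimated from the pair of the other treatment, and the lone array is assumed to vary alike.

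The main counts after celastrol were 5 members and 353 genes, against 8 and 1135 with quantile normalization, 8 and 1243 with array weights, 9 and 1522 with the celastrol arrays alone, 2 and 60 in the test against a 1.5-fold change, and 8 and 798 with the crossed block. After heat shock they were 4 members and 490 genes, against 7 and 989 with quantile normalization, 1 and 216 with array weights, 0 and 0 with the heat shock arrays alone, 0 and 69 in the test against a 1.5-fold change, 7 and 849 with the crossed block, and 2 members with exact zeros kept. For the difference they were 0 members and 60 genes, against 2 and 164 with quantile normalization, 0 and 31 in the test against a 1.5-fold change, 2 and 132 without genes low on all arrays, 1 member with median-centred arrays and 2 members with array weights. Called genes after celastrol were 208 higher and 145 lower, against 249 and 94 with median-centred arrays.

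The replicate numbers share no stated origin, and deviations of same-numbered arrays correlated at −0.31 over genes. The replicate block gave 2 members and 65 genes after celastrol, 0 and 30 after heat shock, and 0 and 0 for the difference. Over all settings the difference between treatments changed sign for 14 of the 36 genes (for 5 with all arrays kept), the celastrol mean for 8 and the heat shock mean for 8, and 0 of these values were called. Differences that changed sign include those of ATG16 (0.23; −0.14 with quantile normalization, −0.01 without celastrol replicate 1, and −0.59 to 1.05 over the left-out arrays), ATG42 (0.09; −0.28 to 0.46 over the left-out arrays) and ATG8 (0.06; −0.17 to 0.28 over the left-out arrays). Of the calls in the related lists, those of YKT6 after celastrol and AMS1 after heat shock were each lost in 4 of 16 settings and that of TAP42 after celastrol in 6. The cause of these shifts was not tested.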

Other observations

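The low values of ATG16 on all 4 arrays had counterparts among the nutrient signalling genes. GTR2, for a small GTPase upstream of TORC1, had log2 ratios of −1.28 and −1.96 on the celastrol arrays and −2.95 and −0.32 on the heat shock arrays. NPR2, for a subunit of the complex that restrains TORC1, had −1.45 and −1.93 on the celastrol arrays and −2.26 and −0.22 on the heat shock arrays. TPK3, for a catalytic subunit of protein kinase A, had −1.20 and −1.67 on the celastrol arrays and −2.58 and −0.59 on the heat shock arrays. None was called, and in each, as in ATG16 and PRB1, heat shock replicate 1 was the lowest of the 4 arrays. These genes were chosen after their values were seen, and the part of array or dye in them was not tested.

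Single high values on heat shock replicate 1 stood beside lower ones on the other arrays. YPT1, for a Rab GTPase of early secretion and autophagosome formation, had 0.50 and 0.50 on the celastrol arrays, against 2.94 and 0.27 on the heat shock arrays. It was not called after either treatment (limma adjusted p = 0.631 after celastrol and 0.155 after heat shock).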
